A study of Mus musculus with 2 samples.

Results

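The 10 genes described here belong to the bone morphogenetic protein (BMP) pathway, and they were followed across the cell types of the mouse mitral valve in 2 single-cell RNA-Seq libraries. Bmp2, Bmp4 and Bmp6 encode ligands, Chrdl1 and Grem1 encode secreted antagonists, Id1, Id2 and Id3 are transcriptional targets, and Smad6 and Smad7 are inhibitory SMADs that are themselves induced by the pathway. They were taken by gene symbol from the deposited matrices, which list 32285 genes, and each of the 10 symbols matched 1 row. In GENCODE vM21 (GRCm38) Grem1, Bmp2 and Id1 lie on chromosome 2, Id3 on 4, Smad6 on 9, Id2 on 12, Bmp6 on 13, Bmp4 on 14, Smad7 on 18 and Chrdl1 on X, and Bmp4 and Bmp6 overlap genes of the opposite strand, whose reads may not be told apart. The WT library came from wild-type control mice, which the study's methods describe as Fbn1+/+ littermates, and the mgR library from Fbn1 mgR/mgR mice. The mgR allele carries an inserted cassette in Fbn1, the gene for the microfibril protein fibrillin-1, and lowers its expression throughout the body, so it is a model of Marfan syndrome that is not specific to a cell type. Mice of both groups were 12 weeks old and on a C57BL/6J background. Mitral valves were digested with collagenase and elastase, viable cells were sorted, and libraries were made with the 10x Genomics 3' v3 kit. Each genotype had 1 library. The labels do not say how many animals it pooled, and an n of 3 is given for this assay without a statement of what it counts. Genotype and library cannot be told apart, and no test between them was possible.

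BMP ligands bind complexes of type I and type II receptors on the cell surface, which phosphorylate receptor-regulated SMADs. These join Smad4 in the nucleus and switch on a small set of direct targets, among them the Id genes, whose products bind basic helix-loop-helix transcription factors and block them. Smad6 and Smad7 act back on the receptors, and chordin-like and gremlin proteins trap the ligands outside the cell. In the embryonic heart BMP signals to the endocardium take part in forming the valve cushions, and in adult vessels they act on the endothelium.

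Filtering at 200 to 5000 genes and at most 10% mitochondrial UMIs per cell kept 875 of 1104 barcodes in WT and 3438 of 3802 in mgR, with a median of 5033 and 7370 UMIs (unique molecular identifiers, each 1 captured transcript) per cell. The kept cells shared no barcode between libraries. A fibroblast had at least 10 UMIs of Col1a2, Col3a1 and Dcn together, a macrophage at least 10 of C1qa, C1qb and C1qc, and an endothelial cell at least 2 of Pecam1 and Cdh5. Cells meeting 1 rule numbered 322 and 879 fibroblasts, 224 and 1539 macrophages, and 29 and 150 endothelial cells in WT and mgR. A further 28 WT and 304 mgR cells met both the fibroblast and the endothelium rule, and they are given as a group of their own. In that group 64.3% of WT and 76.0% of mgR cells held a Cdh5 UMI, the endothelial markers Kdr, Tie1, Egfl7, Emcn, Cldn5 and Tek summed to 1667 and 1908 CPM, and the fibroblast markers Pdgfra, Lum, Col1a1, Fbln1 and Dpt to 1995 and 902 CPM, against 6714 and 6128 CPM in the fibroblasts. CPM is the number of UMIs of a gene per 1000000 UMIs of all cells of a class in a library.

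Some features of the libraries touched every comparison. Xist UMIs without Y-linked UMIs were found in 28.1% of the WT and 60.8% of the mgR cells, and the reverse in 38.5% and 21.1%, although the study's methods name male mice for experimental comparisons, so ratios are also given within each of these groups. Macrophage C1q transcripts in fibroblasts stood at 16.6 CPM in WT and 51.3 CPM in mgR, and 16 dissociation-response genes such as Fos and Jun summed to 9406 and 9822 CPM in fibroblasts, 10877 and 9092 CPM in macrophages and 8820 and 10391 CPM in endothelium. Their part in the values below was not tested. Fbn1 itself stood at 171 CPM in WT and 135 CPM in mgR fibroblasts, a ratio of 0.790 (95% interval 0.691 to 0.907). All intervals cover counting error only.

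Of the 8 members with at least 100 UMIs over the 3 classes and both libraries, Id1 and Smad6 were at least 2-fold higher in endothelium than in fibroblasts and in macrophages in both libraries, a rule that 4.69% of the 10334 genes with as many UMIs met. None of the 8 met it for fibroblasts (4.11% of genes) or for macrophages (6.01%). Chrdl1 missed the fibroblast rule at 46.2 CPM against the 25.5 CPM that 0 endothelial UMIs allow in WT, and Id2 missed the macrophage rule through 1 WT endothelial cell with 19 UMIs. Chrdl1 met it when cells of several rules were kept in each class or cells of both rules counted as endothelium, and Id2 met it then and also with a Cdh5 UMI required, without the top cells and in Y-linked-only cells. Bmp6, with 96 UMIs in the 3 classes, and Grem1 fell under the minimum. Counting the cells of both rules as endothelium, a choice made after their number was seen, added Bmp6 to Id1 and Smad6 (4.94% of 10660 genes).

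**Figure D1:**
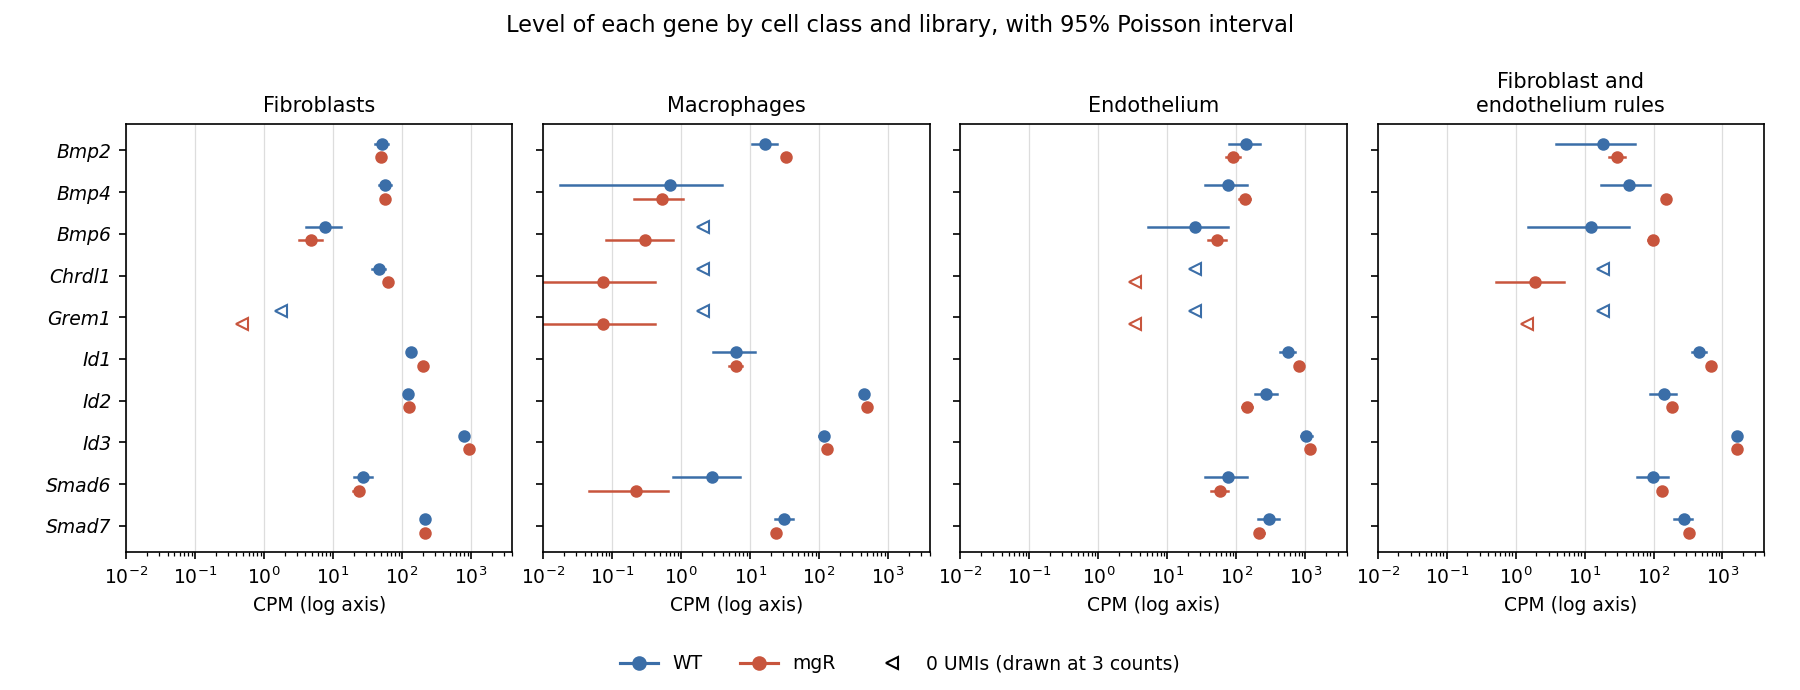
Level of each of the 10 genes in CPM (log axis) in 4 groups of cells, WT in blue and mgR in red, with bars for the 95% Poisson interval and open triangles for genes with 0 UMIs drawn at 3 counts. Chrdl1 appears in fibroblasts at 46.2 and 63.4 CPM and has no UMI in endothelium, while Id2 stands at 452 and 504 CPM in macrophages, above its 124 and 128 CPM in fibroblasts.

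Bmp4 was a transcript of fibroblasts and endothelium and was almost absent from macrophages. In fibroblasts it stood at 56.8 CPM in WT (46.0 to 69.4, 96 UMIs) and 56.9 CPM in mgR (51.1 to 63.2, 353 UMIs), a ratio of 1.0 (0.797 to 1.27). In endothelium the values were 76.5 CPM (35.0 to 145, 9 UMIs) and 133 CPM (110 to 160, 116 UMIs), a ratio of 1.74 (0.884 to 3.90). In cells of both rules they were 43.4 CPM (17.4 to 89.4, 7 UMIs) and 149 CPM (133 to 167, 309 UMIs). That last pair gave a ratio of 3.44 (1.65 to 8.64), which lay above 1 beyond counting error, while those of the other classes did not. It was 5.07 (1.39 to 42.1) in Xist-only cells, on 2 WT UMIs, and 1.72 (0.424 to 15.0) in Y-linked-only cells. Macrophages held 1 Bmp4 UMI in 224 WT cells and 7 UMIs in 1539 mgR cells. Thinned to 2000 UMIs each, 12% of WT and 10.5% of mgR fibroblasts held a Bmp4 UMI, against 0 of 218 (which allows up to 1.38%) and 0.132% of macrophages and 0 of 81 (up to 3.70%) and 2.27% of T cells.

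Bmp6, which encodes a ligand known from endothelium for its part in iron homeostasis, had its highest mgR levels in the 2 groups that met the endothelium rule. It stood at 7.70 CPM in WT (13 UMIs) and 4.84 CPM in mgR fibroblasts (30 UMIs), at 25.5 CPM (3 UMIs) and 52.7 CPM (46 UMIs) in endothelium, and at 12.4 CPM (2 UMIs) and 96.7 CPM (83.7 to 111, 200 UMIs) in cells of both rules. In mgR, endothelium was 10.9-fold (6.74 to 17.9) above fibroblasts, and in WT 3.31-fold (0.606 to 12.1), on 3 UMIs. The mgR to WT ratio was 2.07 (0.664 to 10.4) in endothelium and 7.80 (2.13 to 64.9) in cells of both rules, both resting on 3 or fewer WT UMIs. Macrophages had 0 Bmp6 UMIs in WT, which allows up to 2.08 CPM, and 4 in mgR.

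Within mgR endothelium and mgR cells of both rules, the Bmp6 level was higher in cells with Prox1, Vwf or Emcn transcripts. These markers were set against Wnt9b, Nts and Dkk2, a cell being placed by at least 2 UMIs of the larger sum; both lists come from earlier results of these data. In mgR endothelium the first subset held 119.5 CPM of Bmp6 in 56 cells and the second 23.6 CPM in 72 cells, a ratio of 5.06 (2.49 to 11.1). Of these cells 11 (19.6%) and 9 (12.5%) held a Bmp6 UMI, so the shares lay closer together than the levels. A single mgR endothelial cell held 10 of the 46 UMIs. The same split of the mgR cells of both rules, made after the data were seen, gave 123 CPM in 214 cells and 67.7 CPM in 53 cells, a ratio of 1.82 (1.23 to 2.76). There 35.5% and 28.3% of cells held a Bmp6 UMI. Bmp4 did not differ between the subsets beyond counting error, with ratios of 1.2 (0.807 to 1.77) and 1.11 (0.842 to 1.48). In WT the subsets held 8 and 12 endothelial cells and 14 and 5 cells of both rules. With so few cells no such ratio is given for WT.

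Bmp2 was the ligand found in all 3 classes. In endothelium it stood at 136 CPM in WT (77.8 to 221, 16 UMIs in 7 of 29 cells) and 89.4 CPM in mgR (70.7 to 112, 78 UMIs in 22 of 150 cells), of which 1 mgR cell gave 26. The ratio of 0.657 (0.380 to 1.21) went opposite ways within the sex-linked groups, at 3.29 (0.558 to 133) in Xist-only cells, on 1 WT UMI, and 0.135 (0.0472 to 0.369) in Y-linked-only cells, on 11 WT and 8 mgR UMIs. In fibroblasts the values were 50.9 CPM (40.7 to 62.9, 86 UMIs) and 49.8 CPM (44.4 to 55.7, 309 UMIs), a ratio of 0.978 (0.768 to 1.26). In macrophages they were 16.6 CPM (10.6 to 24.7, 24 UMIs) and 33.7 CPM (30.6 to 36.9, 453 UMIs). Fibroblasts stood 3.07-fold (1.93 to 5.04) above macrophages in WT and 1.48-fold (1.28 to 1.71) in mgR, and these intervals do not overlap. The macrophage ratio was 2.03 (1.34 to 3.20), and Bmp2 was the one member of 4 with enough UMIs in macrophages that lay at least 1.5-fold apart between the libraries, as did 18.5% of 7953 genes there. Cells of both rules held less of it than endothelium, at 18.6 CPM (3 UMIs) and 30.0 CPM (62 UMIs), which was 0.335 times (0.236 to 0.474) the endothelial level in mgR.

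Bmp2 of macrophages lay almost wholly in cells with Lyve1, Folr2 or Cd163 transcripts, the genes of tissue-resident macrophages. That subset, set against Cx3cr1 and Cd72, held 22 of the 24 WT and 432 of the 453 mgR Bmp2 UMIs. Its level was 41.3 CPM in WT and 50.5 CPM in mgR, against 1.53 CPM (1 UMI) and 4.15 CPM (14 UMIs) in the Cx3cr1 and Cd72 subset, so the first stood 27.0-fold (4.36 to 1113) above the second in WT and 12.2-fold (7.17 to 22.4) in mgR. The subset made up 82 of 224 WT macrophages (36.6%) and 954 of 1539 mgR macrophages (62.0%), with 77 and 316 macrophages near the bound, having at most 2 marker UMIs or sums within 1 UMI of each other. Inside it the mgR to WT ratio of Bmp2 was 1.22 (0.797 to 1.97), smaller than over all macrophages. The whole-class ratio was 1.29 (0.688 to 2.71) in Xist-only macrophages and 2.83 (1.57 to 5.61) in Y-linked-only macrophages. Within the Lyve1, Folr2 and Cd163 subset it was 0.669 (0.347 to 1.48) in the former and 1.99 (1.08 to 4.09) in the latter, a split added after the subset levels were seen. After thinning, 3.21% of WT (1.30 to 6.50) and 5.94% of mgR macrophages (4.80 to 7.25) held a Bmp2 UMI, against 1.23% and 0% of T cells and 0% and 0.610% of dendritic cells, and the WT share overlaps those of T cells within counting error.

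**Figure D2:**
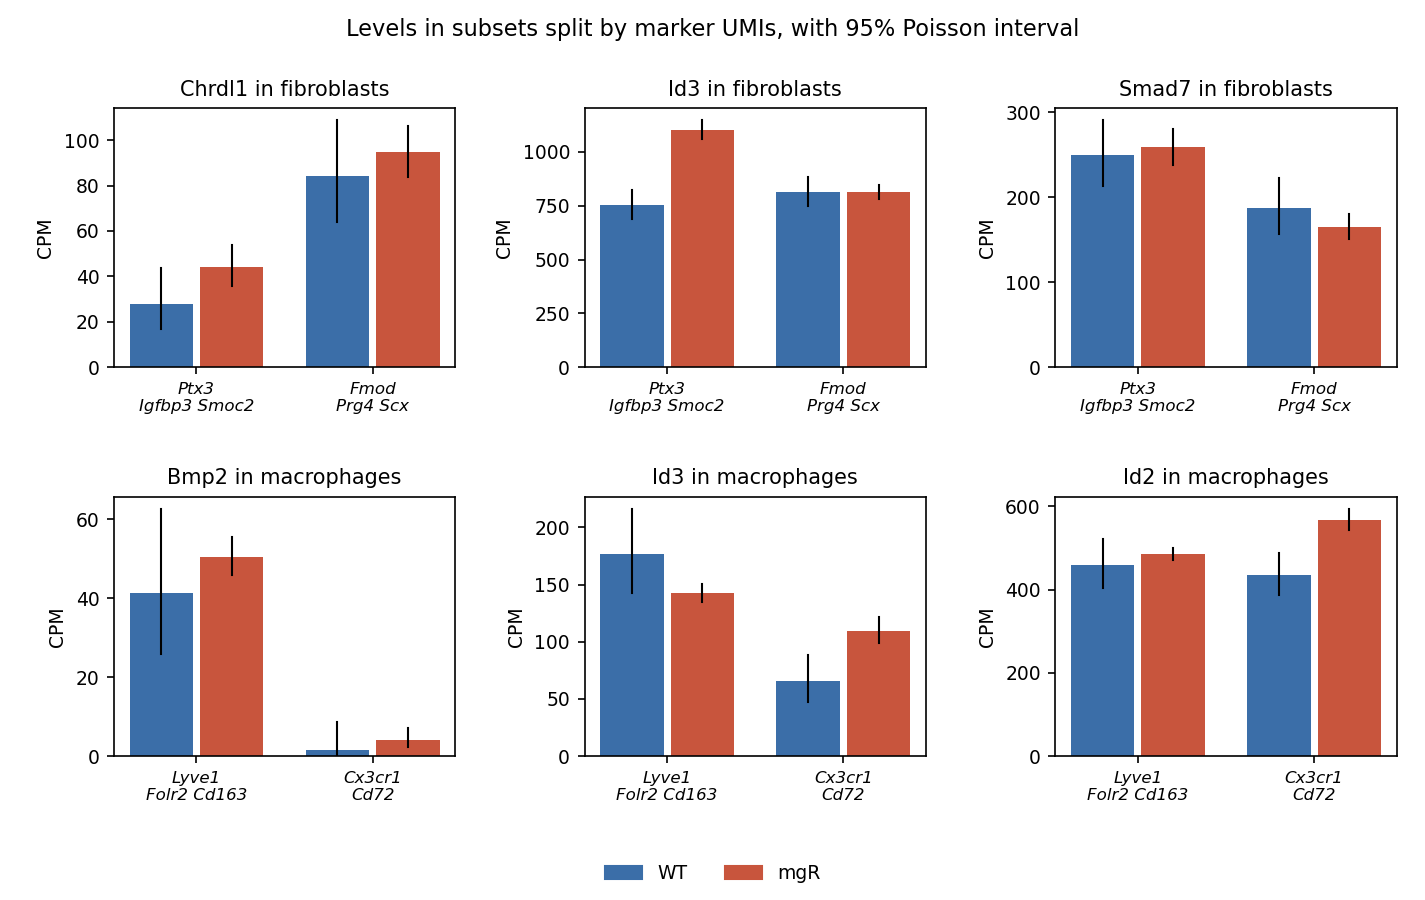
CPM (vertical axes from 0) of 3 genes in fibroblast subsets and 3 genes in macrophage subsets, WT in blue and mgR in red, with black lines for the 95% Poisson interval. Bmp2 stands at 41.3 and 50.5 CPM in the Lyve1, Folr2 and Cd163 macrophages and at 1.53 and 4.15 CPM in the Cx3cr1 and Cd72 macrophages, and Chrdl1 is higher in the Fmod, Prg4 and Scx fibroblasts of both libraries.

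Of the antagonists, Chrdl1, an X-linked gene for a chordin-like protein that binds BMP ligands, was detected in fibroblasts, while Grem1 was not detectable in them. Fibroblasts held 46.2 CPM of Chrdl1 in WT (36.5 to 57.6, 78 UMIs) and 63.4 CPM in mgR (57.3 to 69.9, 393 UMIs). Endothelium held 0 UMIs in both libraries, which allows up to 25.5 CPM in WT and 3.44 CPM in mgR, macrophages held 0 and 1, and cells of both rules held 0 and 4 (1.93 CPM in mgR, 0.0305 times the fibroblast level, 0.00827 to 0.0788). Grem1 had 1 UMI among all kept cells, in a mgR macrophage, and 0 in fibroblasts, which allows up to 1.78 CPM in WT and 0.484 CPM in mgR.

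Chrdl1 was higher in a portion of the fibroblasts. Cells with Fmod, Prg4 or Scx transcripts, matrix and tendon-type genes, held 84.1 CPM in WT and 94.6 CPM in mgR, and cells with Ptx3, Igfbp3 or Smoc2 transcripts 27.9 and 44.0 CPM. The level in the latter was 0.332 times (0.187 to 0.566) that in the former in WT and 0.466 times (0.367 to 0.588) in mgR. In WT the former held 58 UMIs, of which 1 cell gave 24 and 10 cells gave 84.5%. Shares of cells with a UMI, without thinning, lay closer together. They were 16.2% in the former and 9.52% in the latter in WT, and 27.9% and 20.6% in mgR. The subset with Fmod, Prg4 or Scx made up 36.3% of WT and 44.8% of mgR fibroblasts. The mgR to WT ratio of Chrdl1 over all fibroblasts was 1.37 (1.07 to 1.77). It moved with few WT cells, since 1 WT cell gave 24 of the 78 UMIs and 10 cells gave 71.8% of them, and without the top 1% of cells in each library the ratio was 2.37. It was 1.17 (0.758 to 1.88) in Xist-only and 2.20 (1.42 to 3.53) in Y-linked-only fibroblasts. After thinning, 5.82% of WT (3.43 to 9.16) and 9.93% of mgR fibroblasts (8.0 to 12.2) held a UMI.

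Id1 and Id3, whose products hold back differentiation factors and which are read as direct BMP targets, were present in endothelium and fibroblasts. Id1 stood at 553 CPM in WT (427 to 705, 65 UMIs) and 822 CPM in mgR (763 to 884, 717 UMIs) in endothelium, at 458 CPM (74 UMIs) and 682 CPM (1410 UMIs) in cells of both rules, and at 137 CPM (120 to 156, 232 UMIs) and 202 CPM (191 to 213, 1252 UMIs) in fibroblasts. Macrophages held 6.23 CPM (9 UMIs) and 6.24 CPM (84 UMIs). Endothelium was thus 4.02-fold (3.01 to 5.32) above fibroblasts in WT and 4.07-fold (3.71 to 4.47) in mgR, nearly the same ratio by summed UMIs. By the mean of per-cell CPM the ratios lay further apart. Endothelium and fibroblasts then stood at 769 and 134 CPM in WT and at 786 and 203 CPM in mgR. T cells held 0 Id1 UMIs in both libraries, and after thinning 57.1% of WT and 57.4% of mgR endothelial cells held a UMI against 0.459% and 0.924% of macrophages.

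Id1 was higher in mgR than in WT in fibroblasts, endothelium and cells of both rules. The ratio was 1.47 (1.28 to 1.70) in fibroblasts, 1.49 (1.15 to 1.95) in endothelium and 1.49 (1.18 to 1.90) in cells of both rules, each just inside the 1.5-fold bound and above 1 beyond counting error, and 1.0 (0.504 to 2.27) in macrophages. Fibroblasts gave 1.30 (1.01 to 1.69) in Xist-only and 1.86 (1.48 to 2.37) in Y-linked-only cells. By subset they gave 1.46 (1.16 to 1.85) with Ptx3, Igfbp3 or Smoc2 and 1.23 (0.996 to 1.53) with Fmod, Prg4 or Scx. Fibroblasts of neither subset gave 2.31 (1.63 to 3.35), on 37 WT UMIs, and 10 mgR cells gave 50.6% of the 263 mgR UMIs there. In endothelium the mean of per-cell values put the ratio at 1.02, and 1 mgR cell held 76 of the 717 UMIs. The endothelial subsets gave ratios of 2.87 (1.68 to 5.30) in cells with Prox1, Vwf or Emcn, on 14 WT UMIs, and 0.949 (0.690 to 1.33) in cells with Wnt9b, Nts or Dkk2. After thinning, 18.8% of WT (14.5 to 23.8) and 26.5% of mgR fibroblasts (23.5 to 29.6) held an Id1 UMI, while endothelial shares were 57.1% and 57.4%.

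Id3 was spread more widely over the stromal and endothelial cells. It stood at 796 CPM in WT (754 to 840, 1344 UMIs) and 955 CPM in mgR (931 to 980, 5926 UMIs) in fibroblasts, at 1038 CPM (122 UMIs) and 1184 CPM (1033 UMIs) in endothelium, and at 1636 CPM (264 UMIs) and 1601 CPM (3313 UMIs) in cells of both rules. Macrophages held 117 CPM (169 UMIs) and 128 CPM (1724 UMIs), and T cells 8.07 CPM (3 UMIs) and 2.77 CPM (2 UMIs). Cells of both rules stood above the 3 classes, 1.58-fold (1.27 to 1.97) over endothelium in WT and 1.35-fold (1.26 to 1.45) in mgR. Melanocytes, set by at least 3 UMIs of Pmel, Dct and Mlana among cells of no class, held Id3 near that level. Their values were 1332 CPM in WT (1065 to 1645, 86 UMIs, 23 cells) and 1547 CPM in mgR (1119 to 2083, 43 UMIs, 8 cells). The mgR to WT ratio was 1.2 (1.13 to 1.27) in fibroblasts, 1.10 (0.935 to 1.29) in macrophages and 1.14 (0.945 to 1.39) in endothelium.

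The fibroblast ratio of Id3 differed among subsets and between the sex-linked groups, by values that were not tested. Fibroblasts with Ptx3, Igfbp3 or Smoc2 transcripts held 753 CPM in WT and 1102 CPM in mgR, a ratio of 1.46 (1.33 to 1.61). Those with Fmod, Prg4 or Scx held 812 and 813 CPM, a ratio of 1.0 (0.913 to 1.1), and the cells of neither subset gave 1.23 (1.08 to 1.41). The first subset stood at 0.927 times (0.821 to 1.05) the second in WT and at 1.35 times (1.28 to 1.43) in mgR. Xist-only fibroblasts gave a ratio of 1.02 (0.917 to 1.13) and Y-linked-only fibroblasts 1.48 (1.35 to 1.62). These 2 intervals do not overlap, but both come from the same 2 libraries. Among macrophages Id3 was higher in the Lyve1, Folr2 and Cd163 subset, 2.68-fold (1.85 to 3.94) in WT and 1.30-fold (1.16 to 1.47) in mgR. The mgR to WT ratio was 0.807 (0.654 to 1.01) in that subset and 1.66 (1.21 to 2.34) in the Cx3cr1 and Cd72 subset. Macrophages of neither subset gave 0.725 (0.490 to 1.10).

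**Figure D3:**
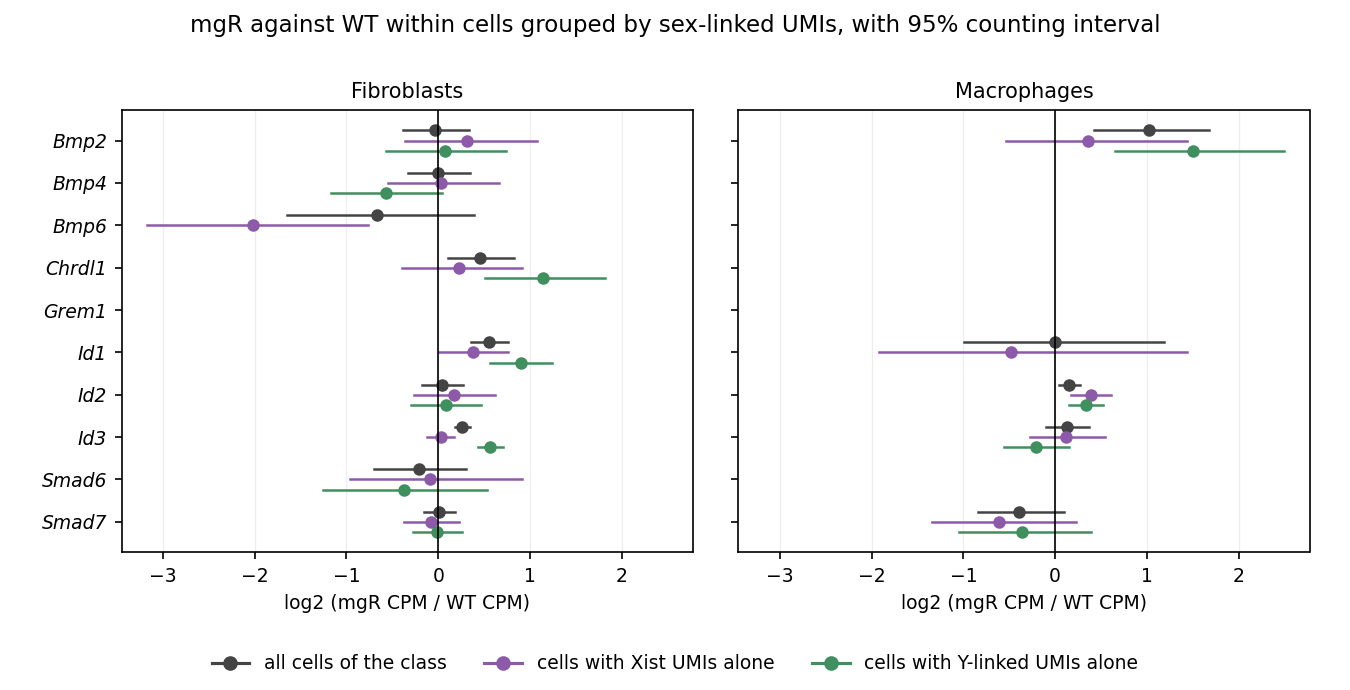
Log2 of the mgR to WT CPM ratio in fibroblasts and macrophages for all cells, cells with Xist UMIs alone and cells with Y-linked UMIs alone, with bars for the 95% counting interval and genes with at least 20 UMIs and none at 0. For Id3 in fibroblasts the ratios are 1.2, 1.02 and 1.48, and for Bmp2 in macrophages 2.03, 1.29 and 2.83.

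Id2 was higher in macrophages and dendritic cells than in fibroblasts. It stood at 452 CPM in WT (418 to 488, 653 UMIs) and 504 CPM in mgR (492 to 516, 6777 UMIs) in macrophages, against 124 CPM (210 UMIs) and 128 CPM (796 UMIs) in fibroblasts. Dendritic cells, some types of which depend on Id2 for their development, held 650 CPM (574 to 734, 262 UMIs) and 689 CPM (652 to 729, 1247 UMIs), and T cells 253 CPM (94 UMIs) and 288 CPM (208 UMIs). Other leukocytes held less, with 67.0 and 36.8 CPM in neutrophils (3 UMIs each) and 0 and 37.6 CPM in B cells (0 and 7 UMIs), while WT melanocytes held 356 CPM (23 UMIs). Fibroblasts were at 0.275 times (0.234 to 0.322) the macrophage level in WT and 0.255 times (0.236 to 0.274) in mgR. The mgR to WT ratio in macrophages was 1.11 (1.03 to 1.21), and 1.31 (1.12 to 1.53) and 1.26 (1.11 to 1.44) in Xist-only and Y-linked-only macrophages. In the Cx3cr1 and Cd72 subset it was 1.30 (1.15 to 1.48), and in the Lyve1, Folr2 and Cd163 subset 1.05 (0.926 to 1.2).

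In endothelium Id2 stood at 272 CPM in WT (32 UMIs) and 143 CPM in mgR (125 UMIs), a ratio of 0.527 (0.355 to 0.803) that rested on 1 WT cell with 19 of the 32 UMIs. Without the top cell of WT and the top 2 of mgR the ratio was 1.06, with a Cdh5 UMI required it was 1.07, and with the cells of both rules counted as endothelium it was 0.881. The Xist-only cells gave 0.227 (0.142 to 0.375) and the Y-linked-only cells 2.36 (0.747 to 11.9). Id2 also separated the endothelial subsets in mgR, at 232 CPM with Prox1, Vwf or Emcn and 79.5 CPM with Wnt9b, Nts or Dkk2, a ratio of 2.91 (1.91 to 4.49), and at 3.45 (2.37 to 5.21) in the cells of both rules.

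Smad6, which blocks BMP receptor signalling by preference, was higher in endothelium and in cells of both rules than in fibroblasts. It stood at 76.5 CPM in WT (35.0 to 145, 9 UMIs) and 58.5 CPM in mgR (43.5 to 76.9, 51 UMIs) in endothelium, at 99.1 CPM (56.7 to 161, 16 UMIs) and 131 CPM (116 to 148, 272 UMIs) in cells of both rules, and at 27.2 CPM (46 UMIs) and 23.5 CPM (146 UMIs) in fibroblasts. Macrophages held 4 and 3 UMIs. Endothelium was 2.81-fold (1.21 to 5.81) above fibroblasts in WT and 2.48-fold (1.77 to 3.44) in mgR, on 9 WT endothelial UMIs. After thinning and in Y-linked-only cells Smad6 was no longer among the members that met the 2-fold rule with its minimum of UMIs. Cells of both rules stood 3.64-fold (1.92 to 6.55) and 5.59-fold (4.55 to 6.88) above fibroblasts. The mgR to WT ratios were 0.864 (0.617 to 1.23), 0.764 (0.372 to 1.77) and 1.33 (0.802 to 2.35) in fibroblasts, endothelium and cells of both rules, none apart from 1 beyond counting error. In mgR the Prox1, Vwf or Emcn subset was 2.07-fold (1.13 to 3.81) above the Wnt9b, Nts or Dkk2 subset in endothelium and 2.41-fold (1.66 to 3.61) in cells of both rules.

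The sequences upstream of Smad6, which met the endothelial rule, and of Bmp4, the ligand shared by fibroblasts and endothelium, are shown because their RefSeq and GENCODE vM21 start sites coincide. RefSeq promoter windows (GRCm38.p6, the build of the mm10 matrices) matched 6 of the 10 members. Each line gives 250 bases before the start, 5′ to 3′ on the minus strand, chr9:64022060-64022309 for Smad6 and chr14:46390670-46390919 for Bmp4, with the GC-box letters GGGCGG of either strand in capitals.
Smad6: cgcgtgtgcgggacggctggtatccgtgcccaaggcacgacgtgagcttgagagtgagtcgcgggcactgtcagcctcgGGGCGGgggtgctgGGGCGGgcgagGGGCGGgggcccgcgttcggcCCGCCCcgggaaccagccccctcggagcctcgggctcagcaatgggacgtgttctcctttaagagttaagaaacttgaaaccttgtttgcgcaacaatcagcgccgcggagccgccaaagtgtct
Bmp4: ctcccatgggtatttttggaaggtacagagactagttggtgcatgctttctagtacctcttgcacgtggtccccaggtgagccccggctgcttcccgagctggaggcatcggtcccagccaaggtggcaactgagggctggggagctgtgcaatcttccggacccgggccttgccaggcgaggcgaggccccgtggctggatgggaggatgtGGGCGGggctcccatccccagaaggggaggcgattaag
The Smad6 window held 4 such matches and the Bmp4 window 1. Of 32851 windows of the same length, 32.7% held at least 1 and 4.09% at least 4. The SMAD-binding letters GTCTG (or CAGAC), in 42.2% of windows, and the GC-rich SMAD letters GGCGCC, in 9.59%, and GCCGNCGC, in 6.89%, were searched on both strands and were in neither of the 2 windows. A match is a description of these letters and no evidence of binding.

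Smad7, an inhibitor of both the BMP and the TGF-β branch, was shared by fibroblasts, endothelium and T cells. It stood at 214 CPM in WT (192 to 237, 361 UMIs) and 216 CPM in mgR (204 to 228, 1338 UMIs) in fibroblasts, at 298 CPM (35 UMIs) and 216 CPM (188 UMIs) in endothelium, at 273 CPM (44 UMIs) and 331 CPM (684 UMIs) in cells of both rules, and at 207 CPM (77 UMIs) and 169 CPM (122 UMIs) in T cells. Macrophages held 31.2 CPM (45 UMIs) and 23.8 CPM (320 UMIs), so that fibroblasts stood 6.86-fold (5.02 to 9.58) above them in WT and 9.07-fold (8.02 to 10.3) in mgR. The fibroblast ratio of mgR to WT was 1.01 (0.898 to 1.14), with 0.945 and 0.993 in Xist-only and Y-linked-only cells. Its interval lay within 1.5-fold by counting error alone, which with 1 library per genotype cannot exclude such a difference between genotypes. The ratio was 1.04 (0.872 to 1.24) with Ptx3, Igfbp3 or Smoc2, 0.880 (0.723 to 1.08) with Fmod, Prg4 or Scx and 1.40 (1.06 to 1.87) in neither subset. Fibroblasts with Ptx3, Igfbp3 or Smoc2 held more Smad7 than those with Fmod, Prg4 or Scx, 1.34-fold (1.06 to 1.69) in WT and 1.57-fold (1.39 to 1.78) in mgR. The ratio was 0.764 (0.558 to 1.07) in macrophages and 0.724 (0.503 to 1.07) in endothelium.

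**Figure D4:**
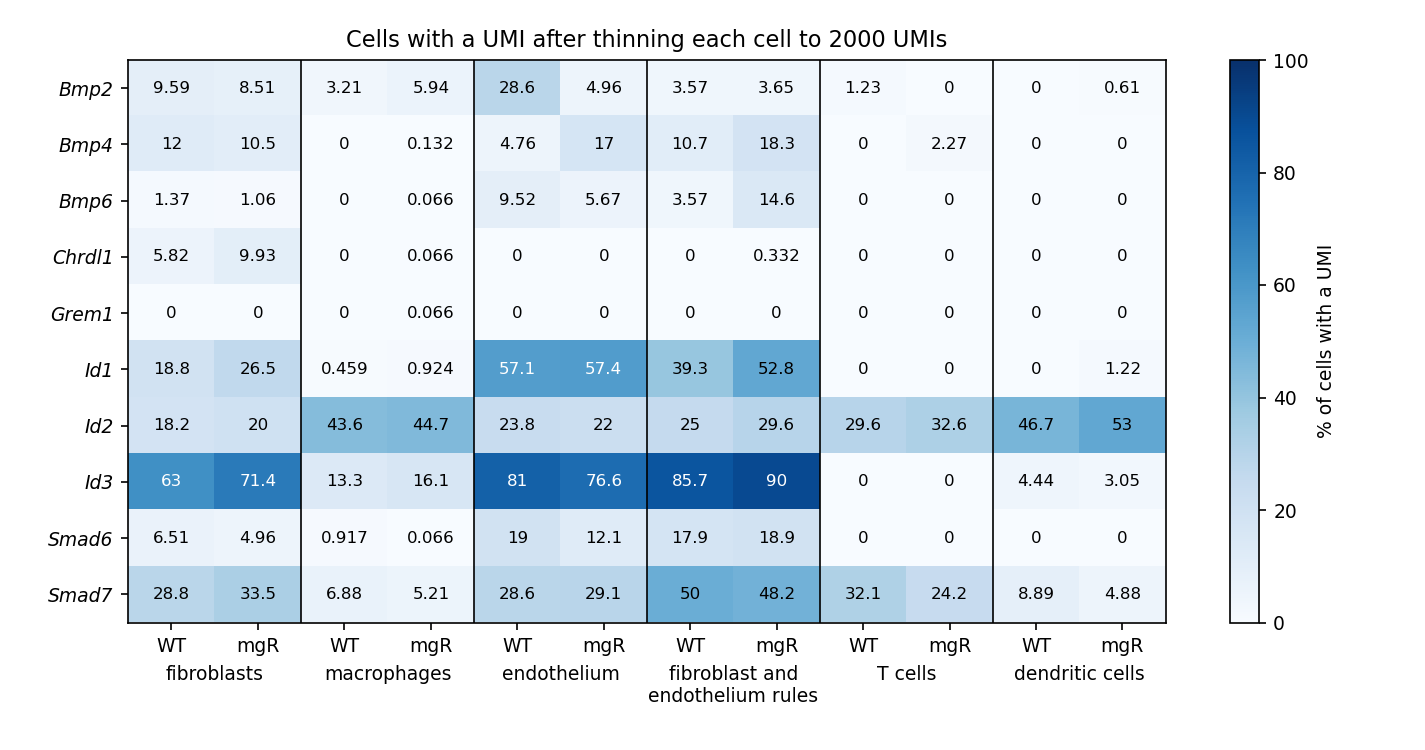
Percent of cells with at least 1 UMI of each gene after each cell was thinned to 2000 UMIs, by cell group and library, from 0% (pale) to 100% (dark). Id3 is found in 63.0% and 71.4% of fibroblasts and 0% of T cells, Id2 in 43.6% and 44.7% of macrophages and 46.7% and 53.0% of dendritic cells, and Chrdl1 in fibroblasts alone above 1%.

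In fibroblasts none of the 8 members with at least 100 UMIs lay past 1.5-fold between mgR and WT, where 10.6% of 7466 genes did (4.77% higher and 5.83% lower). For 8 members a count of 0 is near that share, so it is no result about them. Their median log2 ratio was 0.029 beside -0.034 over the 7466 genes. The nearest were Id1 (1.47) and Chrdl1 (1.37), and Bmp6, with 43 UMIs, was not counted. The mean of per-cell values put both Id1 and Chrdl1 past the bound, and the Y-linked-only fibroblasts did so as well. In macrophages 1 of 4 members passed, Bmp2 (13.4% of genes were higher and 5.1% lower), with a median of 0.14 beside 0.13 over all genes tested. In endothelium 2 of 5 passed, Bmp4 (higher) and Id2 (lower), where 20.4% of 1748 genes did (14.7% higher and 5.72% lower), with a median of 0.19 beside 0.090. In cells of both rules 2 of 7 passed, Bmp4 and Bmp6 (both higher), where 22.5% of 3543 genes did, 14.3% being higher and 8.21% lower, with a median of 0.41 beside 0.033. With those cells counted as endothelium 2 of 8 passed, Bmp4 and Bmp6, where 17.8% of 4723 genes did. The members counted as higher reached the minimum of UMIs through mgR. Bmp2 in macrophages had 24 WT and 453 mgR UMIs, and Bmp4 in endothelium 9 and 116. In cells of both rules Bmp4 had 7 and 309 and Bmp6 2 and 200. The minimum admits genes higher in mgR more easily, so these counts are no support for a rise.

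**Figure D5:**
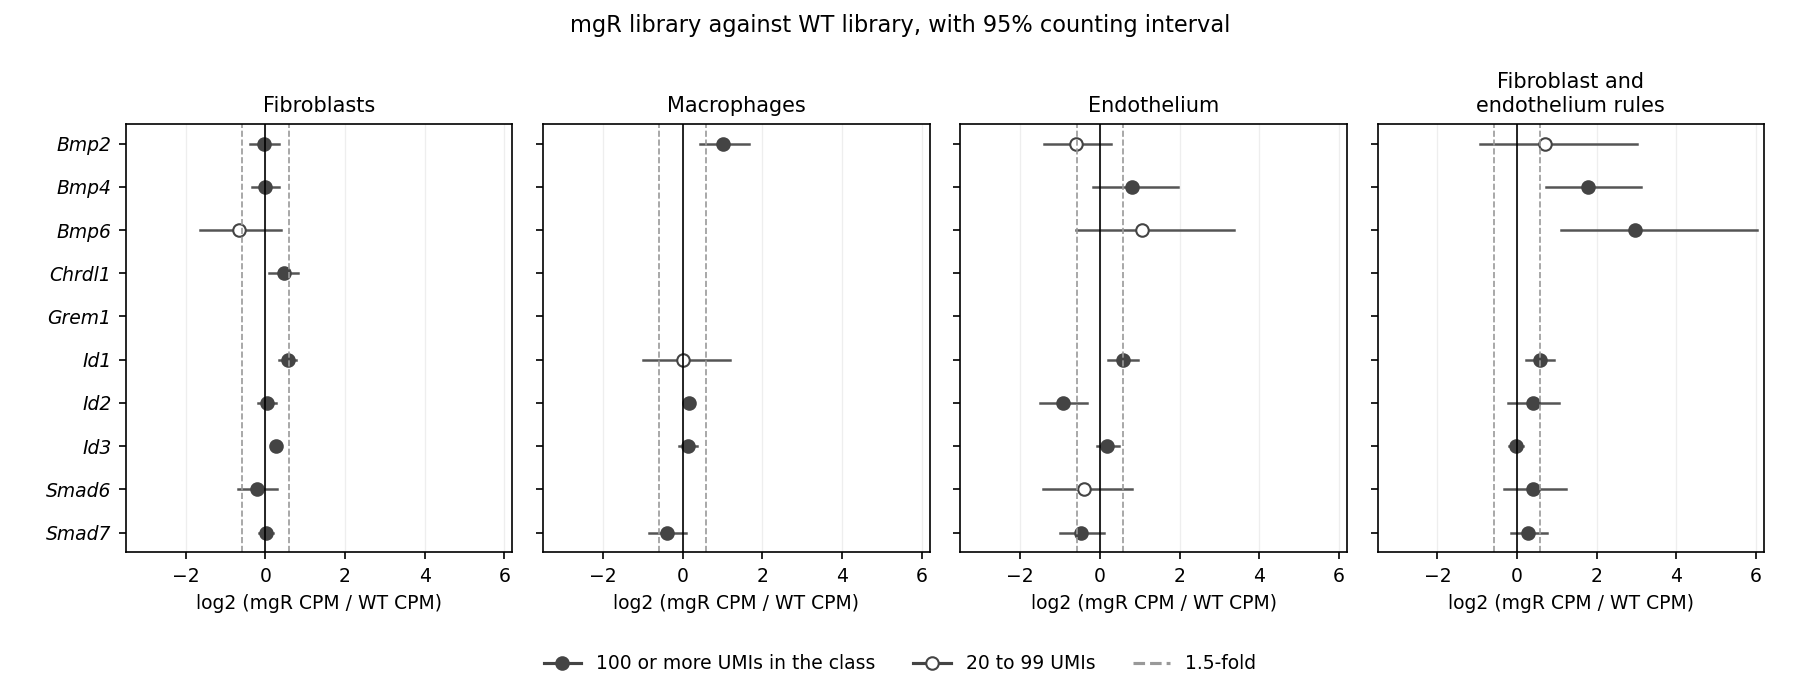
Log2 of the mgR to WT CPM ratio of each gene in 4 groups of cells, with bars for the 95% counting interval, filled circles for at least 100 UMIs, open circles for 20 to 99 UMIs and dashed lines at 1.5-fold. In fibroblasts every filled circle lies between the dashed lines, and in macrophages Bmp2 lies beyond them at a ratio of 2.03. In cells of both rules Bmp4 and Bmp6 lie beyond them at 3.44 and 7.80, on 7 and 2 WT UMIs.

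Members met in the same cells to differing degrees. After thinning, an Id3 UMI was found in 78.2% (65.0 to 88.2) of WT and 86.2% (80.9 to 90.4) of mgR fibroblasts with Id1, against 59.5% (52.9 to 65.8) and 66.1% (62.2 to 69.8) of those without. In mgR endothelium the shares were 86.4% (77.0 to 93.0) with Id1 and 63.3% (49.9 to 75.4) without. Bmp4 and Chrdl1 were found together in 6 of 35 WT (17.1%, 6.56 to 33.6) and 14 of 89 mgR (15.7%, 8.88 to 25) fibroblasts with Bmp4, and Chrdl1 in 4.28% (2.16 to 7.53) and 9.25% (7.28 to 11.5) of those without. Of the mgR macrophages with Bmp2, 0 of 90 held an Id1 UMI, which allows up to 4.02% by the exact interval, and 0.983% of those without Bmp2 did, so a difference was not detectable at this depth.

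The other genes of the pathway were taken from a list of 45, of which 24 had at least 100 UMIs in fibroblasts. There 1 was at least 1.5-fold higher in mgR and 3 were lower, beside 4.77% and 5.83% of all genes tested, and the median log2 ratio of the 24 was -0.18 beside -0.034. Nbl1, which encodes a secreted antagonist, stood at 64.0 and 115 CPM in WT and mgR, a ratio of 1.81 (1.47 to 2.23). The type I receptor Acvr1 stood at 50.9 and 31.1 CPM, a ratio of 0.611 (0.472 to 0.797). The co-receptor Rgmb was at 48.6 and 27.9 CPM (0.574, 0.439 to 0.756), and Bambi, a decoy receptor, at 157 and 97.2 CPM (0.620, 0.535 to 0.719). Further fibroblast genes above 100 CPM lay within 1.5-fold: Id4 at 147 and 98.8 CPM, Unc5b at 139 and 98 CPM, Twsg1 at 210 and 180 CPM, Fstl1 at 600 and 556 CPM, the type II receptor Bmpr2 at 118 and 122 CPM and the co-receptor Eng at 120 and 121 CPM. Id4, with a ratio of 0.673 (0.580 to 0.783), lay just inside the bound and below 1, while the member Id1 lay above 1 in the same cells.

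In macrophages 3 of 12 genes of the list with enough UMIs were past 1.5-fold, all higher in mgR, beside 18.5% of all genes tested, with a median of 0.22 beside 0.13. They were Eng at 9.69 and 16 CPM (ratio 1.65, 0.962 to 3.07), Crim1, for a membrane-bound BMP-binding protein, at 18.7 and 28.5 CPM (1.52, 1.03 to 2.34), and the ubiquitin ligase gene Smurf1 at 12.5 and 19.9 CPM (1.59, 0.989 to 2.73). In endothelium it was 3 of 8, beside 20.4%, with a median of 0.27 beside 0.090. These were Fst, for the ligand trap follistatin, at 51.0 and 118 CPM (2.31, 1.03 to 6.45), Nbl1 at 179 and 298 CPM (1.67, 1.07 to 2.74) and Crim1 at 196 and 379 CPM (1.94, 1.27 to 3.10). In cells of both rules 2 of 15 passed, beside 22.5%, Fst at 99.1 and 250 CPM (2.53, 1.54 to 4.45) and Crim1 at 328 and 506 CPM (1.54, 1.17 to 2.07), with a median of -0.086 beside 0.033. The genes counted as higher in these groups reached the minimum of UMIs through mgR. Their WT UMIs ran from 6 (Fst in endothelium, 103 in mgR) to 53 (Crim1 in cells of both rules, 1047 in mgR). As for the members, these counts are no support for a rise. Endothelium also held Eng at 561 and 687 CPM, Bmpr2 at 306 and 277 CPM, Fstl1 at 281 and 229 CPM, Twsg1 at 145 and 128 CPM and Smad4 at 93.6 and 111 CPM. By the 2-fold class rule, 4 of the 25 genes with enough UMIs were endothelial (Bmpr2, Eng, Nbl1 and Crim1, beside 4.69% of all genes) and 5 fibroblast (Fstl1, Fstl3, Bambi, Id4 and Unc5b, beside 4.11%), and 0 were of macrophages (6.01%).

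The genes whose levels most resembled those of each member were sought over 13 groups of at least 20 cells, each a class in 1 library, among 6160 genes, by Pearson's r of log2(CPM + 10). These groups share 2 libraries, so r is a description. Id1 was nearest to Limch1 (0.988), Hspg2 (0.972) and Ramp2 (0.970), and Bmp4 to Angptl2 (0.993), Wwtr1 (0.991) and Ppic (0.991). Id3 was nearest to Arhgef12 (0.958), Tjp1 (0.957) and Ddah2 (0.957), and Bmp2 to Plscr3 (0.972), Cracr2b (0.972) and Ephx1 (0.963). Smad7 (Senp6, 0.933, Tmem30a, 0.906, and Gnas, 0.901) and Id2 (Grk3, 0.895, Trerf1, 0.866, and Shtn1, 0.857) had less close neighbours. Bmp6, Chrdl1, Smad6 and Grem1 had under 500 UMIs over these groups and were not compared.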

How the data were processed

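Single-cell RNA-Seq of mitral valve cells was analysed for 1 WT and 1 mgR library. The deposited files hold counts of UMIs per gene and barcode. Per the labels, the authors made them with Cell Ranger 7.1.0 on the mm10 build, and the strand setting and annotation are not given in the sources used here. Bmp4 and Bmp6 overlap genes of the opposite strand in GENCODE vM21.

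Cells with 200 to 5000 genes and at most 10% mitochondrial UMIs were kept, as in the study's methods. Classes were set by marker UMIs, and cells meeting several rules were left out of the 3 classes. T cells (at least 2 UMIs of Cd3d, Cd3e and Cd3g) and dendritic cells (2 of Flt3, Cd209a, Xcr1, Clec9a and Ccr7) were named among the cells of no class. UMIs were summed per class and library and divided by the class total (CPM), with 95% exact Poisson, conditional binomial (ratios) and Clopper-Pearson (shares) intervals in scipy 1.17.1. A count of 0 was given the limit of 3 counts. Since each genotype had a single library, differences carry no test. A ratio of at least 1.5, or its inverse, was counted for genes with at least 100 UMIs in a class over both libraries. The mgR library is deeper, so this minimum admits genes higher in mgR more easily than genes lower in mgR. Steps were tested on simulated counts. Doublets were kept, and Scrublet (scanpy 1.11.5) marked 8 WT and 52 mgR cells. All 10 members are described. Other pathway genes were named at 100 CPM, past 1.5-fold, or under the class rule, and all 45 were counted. The members and lists were chosen with earlier results of these data known.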

Additional observations from a re-analysis of the deposited data

How the results depend on the processing

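Other settings for the cells and the scaling left 209 of 242 single ratios of members inside the counting interval of the reported value. A further 30 lay outside it, some on the other side of 1, such as Bmp2 in endothelium (3.29 in Xist-only cells) and Id3 in macrophages (0.865 in Y-linked-only cells). Requiring a Cdh5 UMI or counting cells of both rules as endothelium changed the endothelium alone. Fibroblast and macrophage ratios could not move under those settings, yet they are counted among the 209. Of the ratios past 1.5-fold, Id2 in endothelium turned direction 3 times: 1.07 with a Cdh5 UMI required, 1.06 without the top cells and 2.36 in Y-linked-only cells. The cause was not tested. The number of members past 1.5-fold in fibroblasts, 0, became 2 (Bmp6 and Id1, both higher in mgR) with cells of several rules kept in each class, 2 (Chrdl1 and Id1) by the mean of per-cell CPM and in Y-linked-only cells, and 1 with cells thinned to 2000 UMIs (Chrdl1), scaling by the median gene ratio (Id1), the top cells left out (Chrdl1) and no minimum of UMIs (Bmp6, here lower in mgR at 0.628). In macrophages, 1 became 2 with cells of several rules kept (Bmp2, and Id1 lower in mgR) and with no minimum (Bmp2, and Smad6 lower on 4 WT and 3 mgR UMIs), and in Xist-only cells the 1 was Smad7 in place of Bmp2. In endothelium, 2 became 0 after thinning and in Y-linked-only cells, 1 without the top cells (Bmp4) and in Xist-only cells (Id1), and 4 with no minimum. Of the class rule, the 2 endothelial members became 1 (Id1) after thinning and in Y-linked-only cells. The 0 of fibroblasts became 1 (Chrdl1), and that of macrophages 1 (Id2), with cells of several rules kept or counted as endothelium. Id2 also met the macrophage rule with a Cdh5 UMI required, without the top cells and in Y-linked-only cells. No paired analysis was possible because there was 1 library per genotype. WT endothelium had 29 cells and 117580 UMIs, the fewest of the 3 classes.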
